A study of Mus musculus with 69 samples.

Results

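The 9 genes described here encode inhibitory checkpoint molecules of T cells and the transcription factor Tox. They are Pdcd1 (PD-1), Cd274 (PD-L1), Ctla4, Lag3, Tigit, Havcr2 (TIM-3), Btla, Cd160 and Tox. They were chosen by name, without a threshold on any value, from the 24309 gene symbols of the count table of CD8+ T cells, and all 9 were also found in the tables of naive CD4+ T cells and of cells transduced with retrovirus.

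Checkpoint receptors sit on the surface of T cells and dampen signals from the T cell receptor when they meet their ligands on other cells. PD-1 binds PD-L1, which T cells themselves also carry, and CTLA-4 competes with the costimulatory receptor CD28 for its ligands. BTLA and CD160 share a ligand of the tumour necrosis factor receptor family, and TIGIT competes with CD226 for ligands of the nectin family. LAG-3 binds MHC class II, and TIM-3 binds several ligands, galectin-9 among them. Tox is a DNA-binding protein of the HMG box family that is needed during T cell development and is known for its role in exhausted CD8+ T cells, in which several of these receptors are present together. IL-7 and IL-15, cytokines that sustain naive and memory T cells, signal through STAT5, which has the paralogs STAT5A and STAT5B.

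The study compared mice with germline deletions of Stat5 alleles, 8 to 16 weeks of age and of both sexes. Its methods describe cohorts matched for sex. WT mice were Stat5a+/+ Stat5b+/+, AAB mice were Stat5a-/- Stat5b+/- and thus had 1 allele of Stat5b left, and BBA mice were Stat5a+/- Stat5b-/- and had 1 allele of Stat5a left. Since the deletions are in every cell from birth, effects within the T cell and effects of the rest of the animal cannot be told apart. CD8+ T cells were sorted from pooled lymph nodes and spleen by the surface markers CD44 and CD62L. The states were naive (Tnv, CD44 low CD62L high), central memory (Tcm, CD44 high CD62L high) and effector memory (Tem, CD44 high CD62L low). Tnv and Tcm were sequenced after 3 treatments (no cytokine, called NC, or IL-7 or IL-15), and Tem without cytokine and with IL-15, in 2 libraries for each genotype and condition, 48 in all. Naive CD4+ T cells without cytokine gave 3 WT, 2 AAB and 2 BBA libraries, and with IL-7 they gave 3 WT, 2 AAB and 3 BBA libraries. A further 4 libraries, labelled as CD8+ T cells of AAB mice activated in vitro, came from cells transduced with constitutively active STAT5A (CA-STAT5A) or an empty vector, so that the controls carried the AAB deletions as well. IL-7 and IL-15 were used at 10 ng/ml, for 12 to 18 h by the methods of the study and 12 to 16 h by the sample labels. The sample labels describe the NC cells as cultured too, whereas the methods of the study describe them as processed directly after isolation, so that the effect of a cytokine and that of culture cannot be told apart in comparisons with NC.

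CPM, the unit of all levels, is a gene's count per library total of 1000000 after TMM normalization, a step that corrects the total for differences in composition. Differences are log2 fold changes with their standard error (SE) from edgeR, and calls needed a difference above 1.5-fold together with an adjusted p (Benjamini-Hochberg, over all genes tested) under 0.05. Low genes were filtered out by a rule applied to the whole table, so that some members could not be tested in some comparisons. A gene was kept where any library exceeded the threshold. A low member can thus enter through the group in which it is high. The share of all tested genes that were called is given beside each comparison as the background. Statements that the libraries of groups do not overlap describe levels only. The share of all genes ordered in the same way was not counted.

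On GRCm38, Pdcd1 (ENSMUSG00000026285) lies on chromosome 1 from 94038305 to 94052553 on the minus strand, and Ctla4 (ENSMUSG00000026011) on the same chromosome from 60887000 to 60915832 on the plus strand. Cd274 (ENSMUSG00000016496) lies on chromosome 19 from 29367455 to 29388095 (plus strand), and Lag3 (ENSMUSG00000030124) on chromosome 6 from 124904361 to 124911705 (minus strand). Tigit (ENSMUSG00000071552) and Btla (ENSMUSG00000052013) lie on chromosome 16, from 43648867 to 43664146 (minus strand) and from 45224315 to 45257670 (plus strand). Havcr2 (ENSMUSG00000020399) lies on chromosome 11 from 46454935 to 46481255 (plus strand), and Tox (ENSMUSG00000041272) on chromosome 4 from 6686353 to 6991557 (minus strand). Cd160 (ENSMUSG00000038304) lies on chromosome 3 from 96798763 to 96829351 (minus strand), and its exons overlap those of Pdzk1 on the other strand. As the use of strand in counting is not given in the sources used here, reads of Cd160 and Pdzk1 cannot be told apart where they overlap.

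Promoter sequences (250 bases before the transcription start to 50 after it) were available from RefSeq on GRCm38.p6 for 7 members, without Lag3 and Tox. They were searched on both strands for the STAT palindrome TTCNNNGAA, for its longer-spaced form (TTC and GAA 4 bases apart) and for an interferon-type repeat (GAAA and GAAA 2 bases apart), which 8.3%, 6.95% and 3.44% of all 32851 promoters held. Among the members, the palindrome was found only at the downstream start of Cd160, 234 bases before it, and the other motifs in none of the windows searched. A match is a string of letters and not a binding site, and its absence says only that the letters are not in the window. The sequences below are shown because Cd160 and Cd274 were called in several cytokine comparisons and Ctla4 and Tigit were called in BBA memory cells. The capitals mark the palindrome.
Cd160, downstream start, chr3:96814472-96814771, minus strand: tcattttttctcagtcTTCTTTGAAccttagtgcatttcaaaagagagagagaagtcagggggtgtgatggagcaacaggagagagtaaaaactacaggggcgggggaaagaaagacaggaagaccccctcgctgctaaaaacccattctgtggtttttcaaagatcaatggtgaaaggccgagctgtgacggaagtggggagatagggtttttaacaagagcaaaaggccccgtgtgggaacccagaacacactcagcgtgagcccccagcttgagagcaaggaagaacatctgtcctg
Cd274, chr19:29367188-29367487, plus strand: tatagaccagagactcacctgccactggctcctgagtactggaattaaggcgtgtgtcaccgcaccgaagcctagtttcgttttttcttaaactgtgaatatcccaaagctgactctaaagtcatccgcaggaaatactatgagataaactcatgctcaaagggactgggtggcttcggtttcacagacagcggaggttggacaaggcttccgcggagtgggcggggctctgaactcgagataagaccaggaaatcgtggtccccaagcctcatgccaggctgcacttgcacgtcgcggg
Ctla4, chr1:60908775-60909074, plus strand: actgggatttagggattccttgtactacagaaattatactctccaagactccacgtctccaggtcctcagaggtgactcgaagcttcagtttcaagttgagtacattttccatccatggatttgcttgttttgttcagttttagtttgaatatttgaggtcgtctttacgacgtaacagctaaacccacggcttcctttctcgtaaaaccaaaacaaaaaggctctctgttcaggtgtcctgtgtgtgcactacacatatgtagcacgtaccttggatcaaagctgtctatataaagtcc
Tigit, chr16:43664135-43664434, minus strand: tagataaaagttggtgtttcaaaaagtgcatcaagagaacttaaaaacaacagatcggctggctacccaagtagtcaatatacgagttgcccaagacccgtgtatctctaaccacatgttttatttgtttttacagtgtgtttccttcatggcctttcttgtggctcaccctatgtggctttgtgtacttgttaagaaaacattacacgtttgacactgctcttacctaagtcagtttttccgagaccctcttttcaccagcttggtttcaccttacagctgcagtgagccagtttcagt

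Counts on genes were 5926139 to 25612758 per CD8+ library, 6705004 to 34118295 per CD4+ library and 11020965 to 16516525 per retrovirus library. The targeted genes followed the labels: Stat5a was at 0.974 to 4.95 CPM in AAB CD8+ libraries against 33.5 to 112 in WT, and Stat5b was at 48.3 to 89.8 CPM in BBA CD8+ libraries against 169 to 354 in WT. Some libraries stood apart from their partners. In WT Tnv with IL-15, Cd4 was at 237 CPM in replicate 2 and 6.67 in replicate 1, Foxp3 (the transcription factor of regulatory T cells) at 182 and 19.4, and Cd8a at 700 and 1186. Both libraries of WT Tcm with IL-7 differed from each other more than those of any other replicate pair, with a chi-square per degree of freedom of 120, against 6.36 in the closest pair. The 4 retrovirus libraries did not show the markers of their label, since Cd8a and Cd8b1 summed to 1.71 to 4.69 CPM against 1221 to 3159 in the sorted CD8+ libraries, while 5 NK cell markers summed to 4415 to 9318 CPM. These 5 are Ncr1, Klrb1c, Eomes, Klre1 and Gzma. The paper measured the product of Gzma in activated CD8+ T cells too, so that the sum does not by itself identify NK cells. Neither the label nor the sum settles which cells these were. The 4 libraries are therefore called the libraries labelled in vitro activated CD8+ T cells.

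In WT CD8+ T cells without cytokine, 4 receptors (Lag3, Tigit, Ctla4 and Cd160) were higher in Tem than in Tnv, whereas Cd274, Btla and Tox did not pass the test between these states. Of the 8 members tested between Tem and Tnv, 4 were called, all higher in Tem, with 8.08% of all genes called. Lag3 and Tigit among them passed the filter only through libraries of the memory states, in which they were higher. Lag3, whose product binds MHC class II, stood at 1.83 and 1.77 CPM in the Tnv libraries, at 12.2 and 5.71 in Tcm and at 40.8 and 23.9 in Tem. The Tem libraries were thus above all Tnv and Tcm libraries, and the difference between Tem and Tnv was 4.21 on the log2 scale (SE 0.47, adjusted p = 0.00253), an 18.5-fold difference. Tigit stood at 2.86 and 2.25 CPM in Tnv, at 6.73 and 6.27 in Tcm and at 17.9 and 11.6 in Tem, and the step from Tnv to Tem was 2.59 (SE 0.28, adjusted p = 0.0024). Ctla4 stood at 6.44 and 6.38 CPM in the Tnv libraries, with 11.9 and 11 for Tcm and 25.0 and 19.7 for Tem. Its states did not overlap, and it was higher in Tem than in Tnv by 1.86 (SE 0.18, adjusted p = 0.00137). Cd160, a receptor with both inhibitory and activating roles, stood at 10.6 and 8.87 CPM in the Tnv libraries, with 24.4 and 12.9 for Tcm and 64.7 and 41.1 for Tem, a difference between Tem and Tnv of 2.50 (SE 0.35, adjusted p = 0.00671) whose adjusted p was 0.0532 without replicate 2 of Tnv.

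The other members did not pass the test between Tem and Tnv. Pdcd1 had libraries at 22.8 and 10.8 CPM in Tem and at 2.54 and 1.48 in Tnv, which did not overlap, with a difference of 3.13 (SE 0.79, adjusted p = 0.0589). The difference was 0.51 for Btla (adjusted p = 0.0865), -0.44 for Tox (adjusted p = 0.067) and -0.17 for Cd274. Between neighbouring states fewer members passed. Between Tem and Tcm, where 1.95% of all genes were called, only Ctla4 was, at 1.0 (SE 0.17, adjusted p = 0.0377), and it was no longer called when any of the 6 libraries was left out (0.84 to 1.16) or in a single fit over all CD8+ libraries (adjusted p = 0.624). Without replicate 1 of Tcm, Lag3, Cd160 and Pdcd1 were called in its place. Between Tcm and Tnv, with 2.78% of genes called, no member was called by edgeR, with 6 of 8 at an unadjusted p under 0.05 (14.3% of all genes) and Lag3 at 2.30 (adjusted p = 0.0615). Leaving out replicate 2 of Tcm brought the members called in that comparison to 3 (Cd160, Cd274 and Lag3). The 4 markers of the memory and effector state (Cd44, Il2rb, Ccl5 and Cxcr3) summed to 253 to 257 CPM in Tnv, 1193 to 1452 in Tcm and 1806 to 2519 in Tem. In such bulk samples, more cells that express a gene and more RNA per cell cannot be told apart.

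Dividing by the merged exon length allows members to be ordered within a state. In WT Tnv without cytokine, Cd274 led with 17.1 CPM per kb, followed by Btla with 12.0 and Tox with 7.67, while Pdcd1 (1.04), Lag3 (0.854) and Havcr2 (0.368) were lowest. In Tem, Cd160 led with 20.0 CPM per kb, and Btla (16.5), Tigit (16.0), Lag3 (15.3) and Cd274 (14.6) followed within a narrow range, with Havcr2 last again at 1.25. Naive CD4+ T cells without cytokine were led by Btla with 36.4 CPM per kb, ahead of Cd274 with 13.3 and Tox with 8.06. Their Lag3 was at 0.45 and their Havcr2 at 0.0587 CPM per kb.

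Havcr2 was too low to be tested in most comparisons. Over the 48 CD8+ libraries its median was 0.908 CPM, with 0 counts in 4 libraries and at most 3 counts in 7, and in 11 of 15 CD4+ libraries it had at most 3 counts. Between genotypes it passed the filter on low values only in Tem. Without cytokine it passed through the BBA libraries, up to 13.5 CPM, while WT libraries held 3.15 and 3.63 CPM. Among the other members, Pdcd1 (median 3.27 CPM in CD8+ libraries) could not be tested between genotypes in NC or IL-7-treated Tnv. Tigit could not be tested in Tnv or in CD4+ cells with IL-7. Cd160 could not be tested in Tnv with IL-7 or IL-15, in Tcm with IL-15 or in CD4+ cells.

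**Figure D1:**
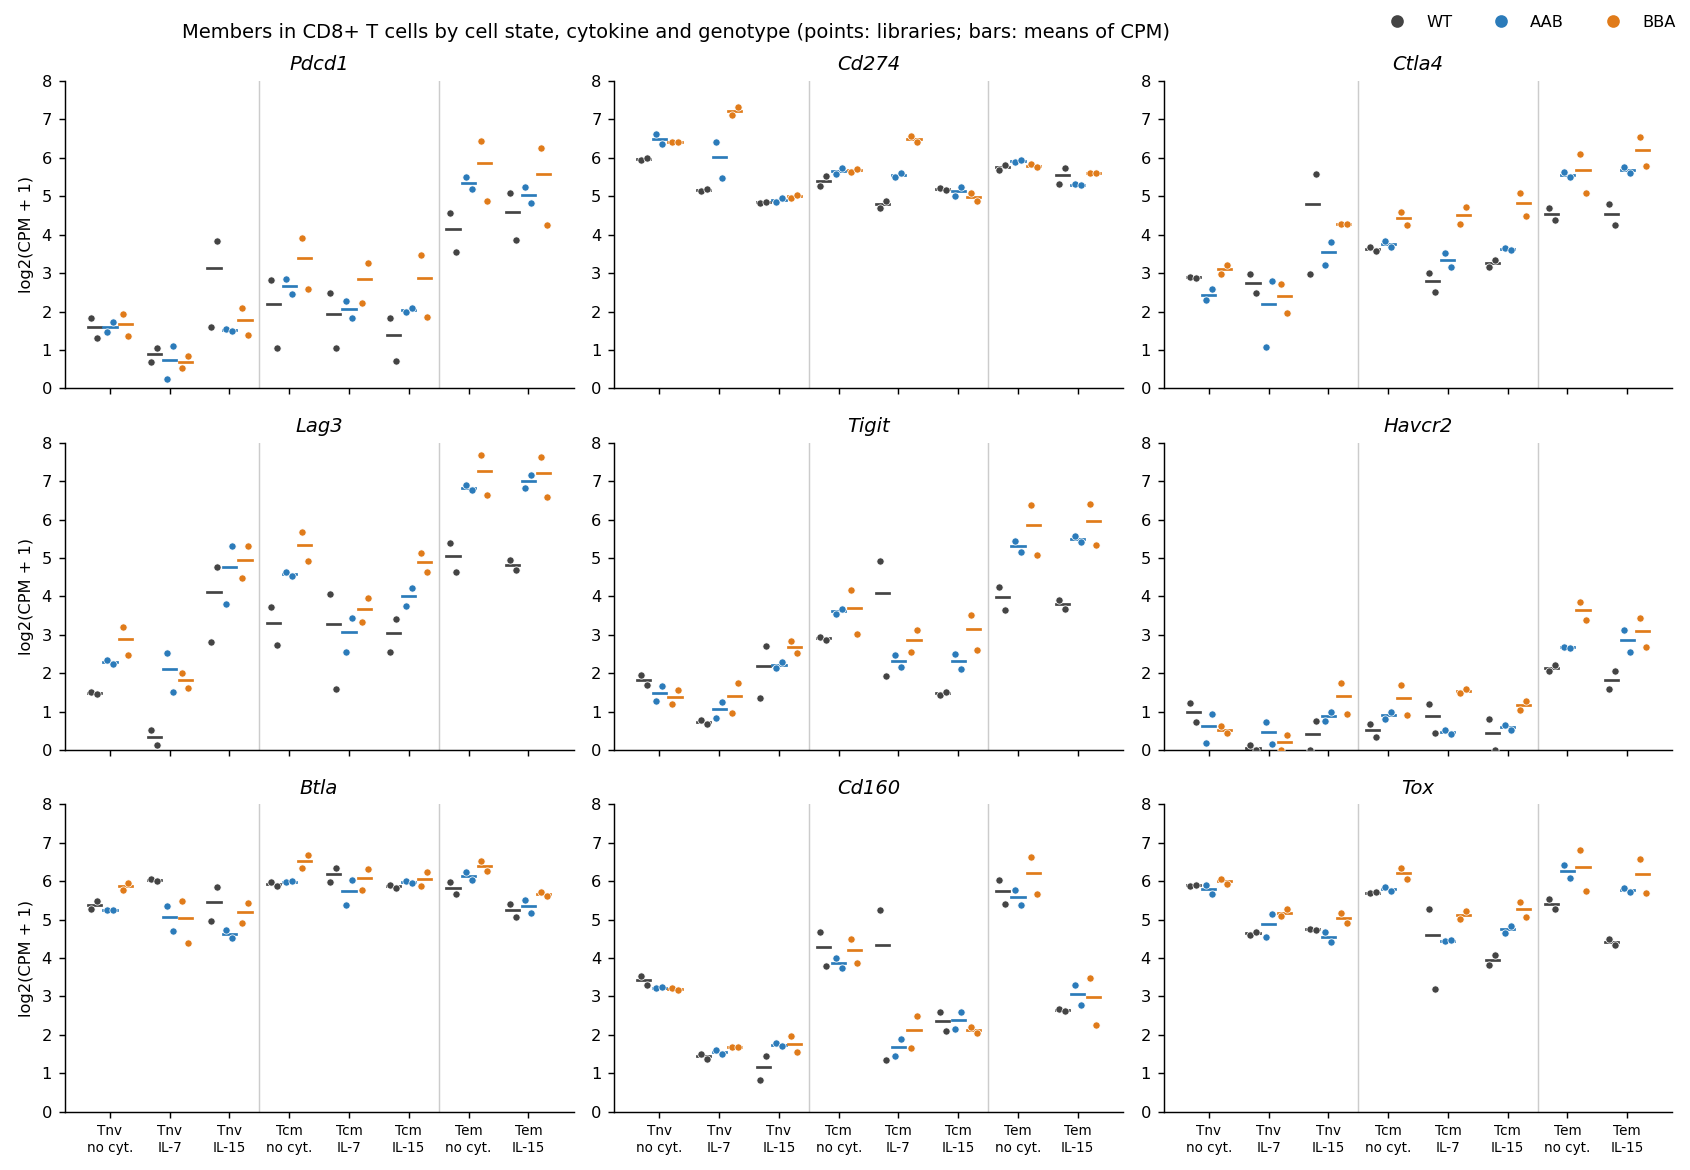
Level of each of the 9 members in the 48 CD8+ libraries, as log2(CPM + 1), by cell state and cytokine (horizontal axis). Points are single libraries coloured by genotype (WT, AAB, BBA), and bars are the means of the 2 libraries. In WT without cytokine, Ctla4, Lag3 and Tigit step up from Tnv to Tem, and in WT Cd160 and Tox stand lower with IL-15 than without cytokine.

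Cd160 and Tox were lower with cytokine than without it in WT cells, in all 3 CD8+ states with IL-15 and in Tnv with IL-7. Over the 6 cytokine comparisons of WT cells, 16 of 41 member tests were calls, of which 14 were lower with cytokine, where 8.67% of all gene tests were calls. Cd160 where it was called, Tigit in Tcm with IL-15 and Pdcd1 in CD4+ cells passed the filter only through NC libraries. Those were the libraries in which they were high. Tox stood at 57.9 and 58.8 CPM in Tnv without cytokine, at 23.4 and 24.6 with IL-7 and at 26.1 and 25.7 with IL-15. Its NC libraries were thus above all libraries with cytokine, and it fell by 1.30 on the log2 scale with IL-7 (SE 0.10, adjusted p = 6.17e-05) and by 1.11 with IL-15 (SE 0.08, adjusted p = 0.0107). In Tcm it stood at 50.4 and 51.4 CPM without cytokine and at 13.2 and 15.8 with IL-15, a difference of -1.81 (SE 0.16, adjusted p = 0.00209). In Tem the levels were 45.2 and 37.9 CPM without cytokine and 21.5 and 19.4 with IL-15, a difference of -0.98 (SE 0.13, adjusted p = 0.0361).

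Cd160 fell in the same comparisons. In Tem it stood at 64.7 and 41.1 CPM without cytokine and at 5.36 and 5.14 with IL-15, a difference of -3.28 (SE 0.25, adjusted p = 0.0158). In Tcm its 24.4 and 12.9 CPM without cytokine compared with 5.02 and 3.31 with IL-15, at -2.13 (SE 0.38, adjusted p = 0.0195). In Tnv it stood at 10.6 and 8.87 CPM without cytokine, while cells given IL-7 held 1.85 and 1.57 and cells given IL-15 held 0.769 and 1.72 (9 and 28 counts). The differences were -2.51 with IL-7 (SE 0.29, adjusted p = 0.000395) and -2.86 with IL-15 (SE 0.48, adjusted p = 0.0433). In AAB and BBA cells the fitted cytokine responses of Cd160 lay between -3.40 and -1.60 in all 10 CD8+ comparisons. The difference of that response from WT was not called in any comparison in which it was tested.

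Cd274, the ligand of PD-1, fell in WT Tnv and in naive CD4+ T cells. It stood at 60.7 and 63.1 CPM in WT Tnv without cytokine, at 34.4 and 35.4 with IL-7 and at 27.4 and 27.9 with IL-15. The differences were -0.85 with IL-7 (SE 0.09, adjusted p = 0.000308) and -1.10 with IL-15 (SE 0.09, adjusted p = 0.0122). Markers of other cells were also lower in WT Tnv with IL-7 than without cytokine: B cell markers summed to 9.33 to 16.2 against 59.5 to 144 CPM, the 6 myeloid markers to 33.8 to 39.2 against 70.1 to 86.6, and the 3 CD4 lineage markers to 0.589 to 1.23 against 7.08 to 10.8. Their part in the falls with IL-7 was not tested.

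Btla rose in WT Tnv with IL-7, from 37.9 and 43.6 to 65.2 and 62.8 CPM, by 0.63 (SE 0.11, adjusted p = 0.00226). Without NC replicate 1 the rise was 0.51, under the limit of 1.5-fold, and in a single fit over all CD8+ libraries its adjusted p was 0.0955. Tigit, which competes with CD226, fell in Tcm with IL-15 from 6.73 and 6.27 to 1.71 and 1.87 CPM, at -1.85 (SE 0.33, adjusted p = 0.0201), and was not called without IL-15 replicate 1 (-1.80, adjusted p = 0.0602) or in a single fit over all CD8+ libraries (adjusted p = 0.107). That fit also ended the IL-15 calls of Cd160 in Tcm (adjusted p = 0.0522) and of Tox in Tnv (0.0614) and Tem (0.158), the last of which filterByExpr ended too (0.0569).

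The backgrounds of these comparisons were uneven. With IL-7, 23.0% of all genes were called in WT Tnv, where 4 of the 5 members tested were called. With IL-15, 4.16% of genes and 3 of 7 members were called in Tnv, 6.07% of genes and 3 of 8 members in Tcm, and 1.64% of genes and 2 of 8 members in Tem. The calls of Cd160, Cd274 and Tox in Tnv with IL-15 were lost when either NC replicate was left out (adjusted p from 0.193 to 0.366) and held without replicate 2 with IL-15, the library with Cd4 and Foxp3. Leaving out that library brought a call of Lag3, higher with IL-15 by 1.76 (adjusted p = 0.0337). In Tem with IL-15, Cd160 was not called without NC replicate 1 (-2.92, adjusted p = 0.0812), nor was Tox without NC replicate 1 (-0.85, adjusted p = 0.195) or 2 (-1.08, adjusted p = 0.127).

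In WT Tcm with IL-7 edgeR called no member, with 2 of 8 at an unadjusted p under 0.05, against 8.16% of all genes, and 0.316% of all genes called. The replicates stood far apart there. Replicate 1 with IL-7 held Cd160 at 36.9 CPM, Tox at 38.1, Tigit at 29.5 and Lag3 at 15.6, against 1.53, 8.19, 2.8 and 2.01 in replicate 2. Without replicate 1, 4 members were called lower than without cytokine (Cd160 at -3.63, Tox at -2.67, Lag3 at -2.18 and Ctla4 at -1.32), and without replicate 2, Cd160 and Tigit were called higher. The direction of Cd160 in this condition thus rested on which library was kept.

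With IL-15, Tox was lower in WT Tcm than in WT Tnv by 0.84 (SE 0.14, adjusted p = 0.0201; 7.60% of genes called). It was the only member called between WT states with IL-15, as 2.03% of genes and no member were called between Tem and Tcm and 2.92% of genes and no member between Tem and Tnv. The 6 WT state comparisons together had 26 of 45 member tests at an unadjusted p under 0.05, against 19.5% of all gene tests. The call of Tox was lost without Tcm replicate 1, Tcm replicate 2 or Tnv replicate 2, with adjusted p from 0.0604 to 0.158, and in a single fit over all CD8+ libraries (0.177). Leaving out either Tnv library, replicate 2 of which held Cd4 and Foxp3, brought calls of Ctla4, Lag3, Pdcd1 and Tigit, all higher in Tem than in Tcm.

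**Figure D2:**
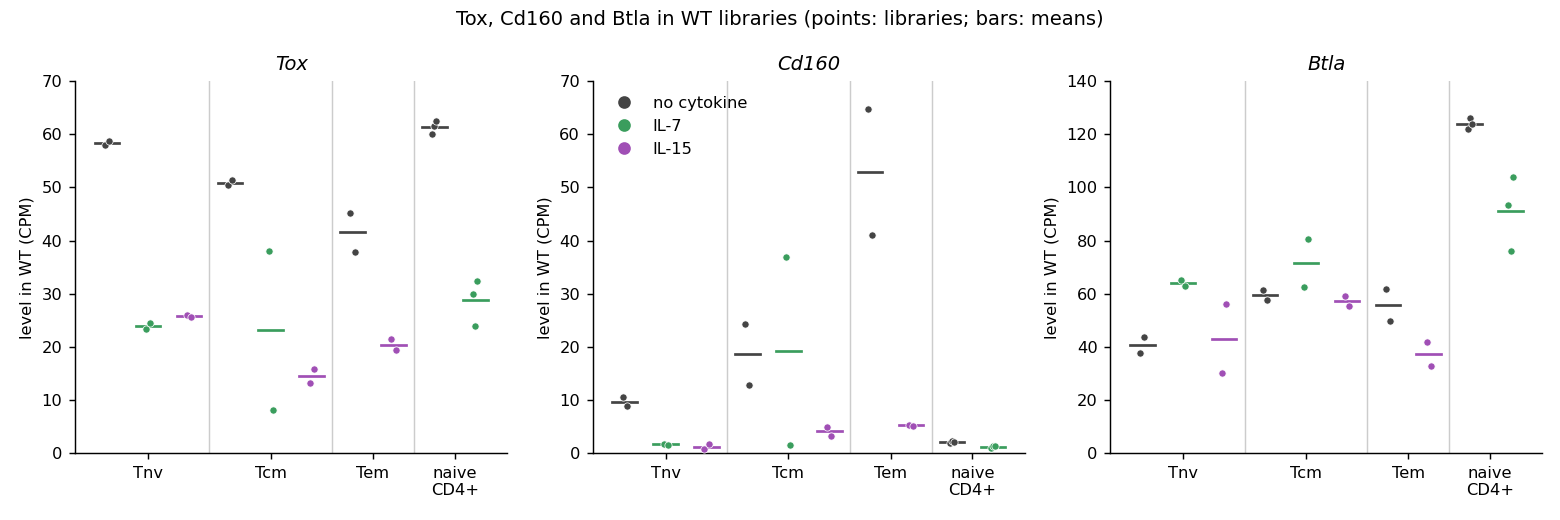
CPM of Tox, Cd160 and Btla in WT CD8+ libraries by cell state and cytokine, and in WT naive CD4+ libraries without cytokine and with IL-7. Points are libraries and bars the means of 2 CD8+ or 3 CD4+ libraries. Tox and Cd160 are lower with IL-15 in all 3 states, and in Tcm with IL-7 the replicates lie far apart (36.9 and 1.53 CPM for Cd160).

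In BBA mice, which lack Stat5b, several receptors and Tox were higher than in WT, and no member was called lower in CD8+ cells. Over the 8 CD8+ conditions, 12 of 58 member tests were calls, all of them higher in BBA, and 32 had an unadjusted p under 0.05. Over all genes, 5.4% of 80339 tests were calls and 21.9% had an unadjusted p under 0.05. The calls lay in memory cells with IL-15 (8 calls), in Tcm with IL-7 (2 calls) and in Tnv, both NC and with IL-7 (1 call each). AAB mice, which lack Stat5a, had 1 call in 58 tests, with 23 at an unadjusted p under 0.05, where 0.691% of all gene tests were calls and 10.8% had such a p. Libraries were not paired in these fits, and a replicate block gave more calls for both mutants (numbers at the end).

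In Tcm with IL-15, Ctla4, Lag3, Tigit and Tox were higher in BBA. Ctla4 stood at 7.99 and 9.18 CPM in WT, 11.5 and 11.1 in AAB and 33.0 and 21.3 in BBA. The BBA libraries were above all others, and the difference between BBA and WT was 1.76 (SE 0.21, adjusted p = 0.00124). Lag3 stood at 4.85 and 9.62 CPM in WT, 12.4 and 17.7 in AAB and 33.8 and 23.8 in BBA, a difference of 2.1 (SE 0.33, adjusted p = 0.00301). Tigit, at 1.71 and 1.87 CPM in WT, was at 4.7 and 3.33 in AAB and at 10.5 and 5.13 in BBA, a difference of 2.20 (SE 0.42, adjusted p = 0.00644). For all 3 receptors AAB lay between WT and BBA without overlap. Between BBA and WT, 49.5% of all genes had an unadjusted p under 0.05 there.

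Tox followed the same order in Tcm with IL-15. It stood at 13.2 and 15.8 CPM in WT, 24.3 and 27.5 in AAB and 43.3 and 32.8 in BBA, which did not overlap. The difference was 1.49 between BBA and WT (SE 0.16, adjusted p = 0.000771) and 0.86 between AAB and WT (SE 0.16, adjusted p = 0.0261), and the difference of AAB from BBA was -0.63 (SE 0.15, adjusted p = 0.0483). Ctla4 was lower in AAB than in BBA as well, at -1.33 (SE 0.21, adjusted p = 0.0172). The response of Tox to IL-15 differed between BBA and WT by 0.91 (SE 0.23, adjusted p = 0.0364; 7.73% of genes called for this difference). Without cytokine Tox stood at 80.9 and 65.8 CPM in BBA Tcm and at 50.4 and 51.4 in WT, so that on the log2 scale its gap between the cultures was narrower in BBA.

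Of all genes, 23.5% were called between BBA and WT in Tcm with IL-15, 4.29% between AAB and WT and 5.85% between AAB and BBA. Against these, 4 of 7, 1 of 7 and 2 of 7 members tested were called. The median log2 difference between BBA and WT was 1.76 over the members tested and 0.02 over all genes. The BBA calls of Ctla4, Lag3, Tigit and Tox held in every leave-one-out fit in which they were tested. With all libraries Tigit passed the filter only through its higher BBA library. Its place among the 7 members tested thus rests on that library, and a fit without it may not test Tigit. The AAB call of Tox was lost without either AAB or either WT library (0.75 to 0.97, adjusted p from 0.0633 to 0.119). AAB and BBA were no longer called apart in Tox in any of the 6 leave-one-out fits (adjusted p from 0.055 to 0.176), nor in Ctla4 without AAB replicate 1 (adjusted p = 0.0614), AAB replicate 2 (0.0924) or BBA replicate 1 (0.051), and the difference in the response of Tox was lost in all 6 (0.80 to 1.06, adjusted p from 0.0704 to 0.193). These AAB calls and the response of Tox were also lost in a single fit over all CD8+ libraries (adjusted p from 0.192 to 0.416), and with filterByExpr those of Tox were, between AAB and BBA (0.0779) and for the response (0.0803).

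Pdcd1 was not called in Tcm with IL-15. It stood at 2.57 and 0.625 CPM in WT, 2.96 and 3.27 in AAB and 10 and 2.6 in BBA, with a difference of 2.02 (adjusted p = 0.0715) between BBA and WT. The lower BBA library thus lay beside the higher WT library. Cd274 was at 36.2 and 34.6 CPM in WT and 32.8 and 28.5 in BBA, a difference of -0.11 (SE 0.12, adjusted p = 0.502). Markers of other kinds moved with genotype in these libraries. The 4 memory markers summed to 736 to 965 CPM in BBA against 1610 to 1671 in WT, and the 6 B cell markers to 202 to 402 against 95.3 to 184. The 4 markers of regulatory T cells summed to 37.9 to 42.4 CPM in BBA and 42 to 42.4 in WT. The part of the memory and B cell markers in the differences was not tested.

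In Tem with IL-15 the same 4 members were called between BBA and WT, with 1.76% of all genes called. Lag3 stood at 29.6 and 24.6 CPM in WT, 113 and 143 in AAB and 197 and 95.9 in BBA, and Tigit at 14.0 and 11.7 in WT, 46.8 and 41.6 in AAB and 83.9 and 39.7 in BBA. All libraries of both mutants were above those of WT, and the range of BBA enclosed that of AAB. The differences between BBA and WT were 2.49 for Lag3 (SE 0.35, adjusted p = 0.0413) and 2.32 for Tigit (SE 0.34, adjusted p = 0.042). Ctla4 stood at 26.9 and 17.9 CPM in WT, 53.3 and 47.8 in AAB and 91.8 and 54.1 in BBA, at 1.77 (SE 0.27, adjusted p = 0.0454). Tox stood at 21.5 and 19.4 CPM in WT, 55.9 and 51.9 in AAB and 94.2 and 50.8 in BBA, at 1.88 (SE 0.27, adjusted p = 0.042).

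All 9 members had a positive log2 difference between BBA and WT in Tem with IL-15, with a median of 1.60 against 0.02 over all genes. These 4 calls were lost together when any library other than BBA replicate 2 was left out, and with filterByExpr in place of the filter (adjusted p from 0.0758 to 0.12). Without BBA replicate 1, for example, Lag3 was at 1.91 (adjusted p = 0.118), Tigit at 1.71 (0.115), Ctla4 at 1.37 (0.143) and Tox at 1.39 (0.115), and without WT replicate 1 the adjusted p were 0.232 to 0.285. Between AAB and WT the differences were 2.31 for Lag3 (adjusted p = 0.245), 1.84 for Tigit (0.295), 1.25 for Ctla4 (0.343) and 1.46 for Tox (0.304), none of them called. The 4 markers of regulatory T cells summed to 78.1 to 89 CPM in BBA against 57.2 to 74.9 in WT, but Foxp3 among them was at 5.78 and 7.51 CPM in BBA and 18.5 and 24.9 in WT.

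**Figure D3:**
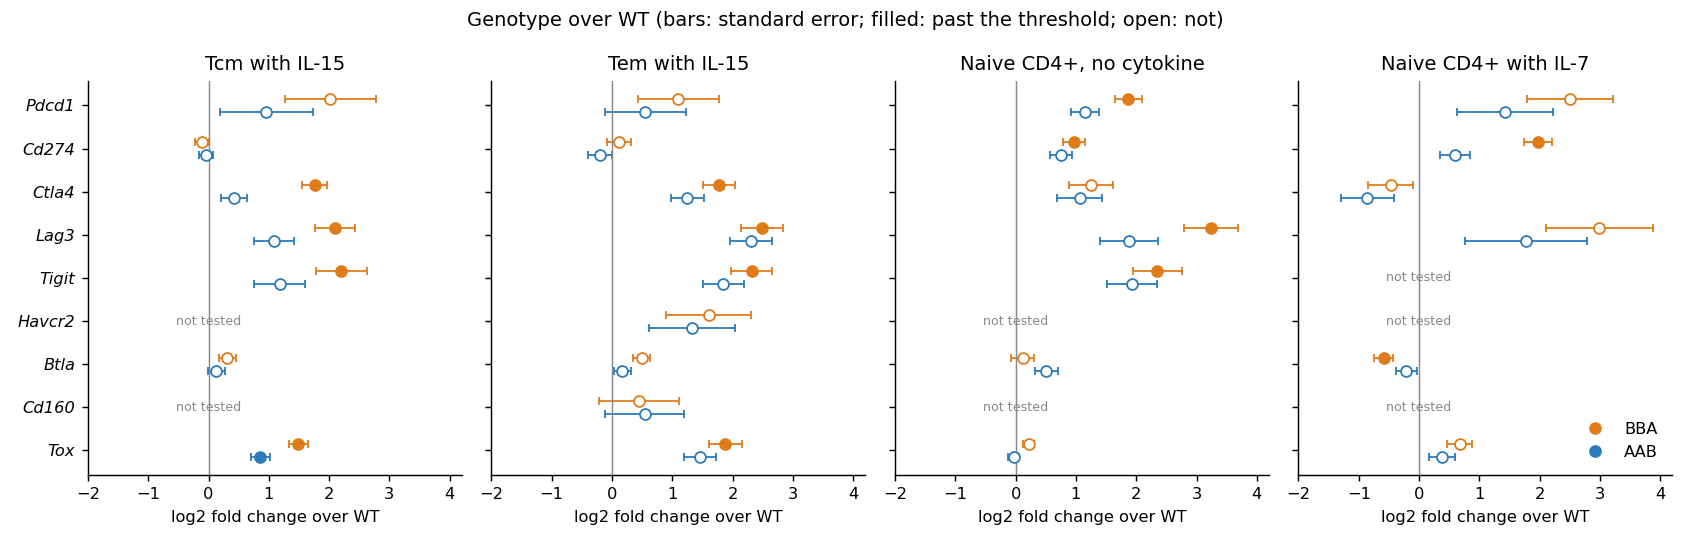
Log2 fold change over WT of each member in BBA and in AAB, with SE bars, in Tcm and Tem with IL-15 and in naive CD4+ T cells without cytokine (NC) and with IL-7. Filled points passed the threshold, open points did not, and members left out by the filter are marked as not tested. Ctla4, Lag3, Tigit and Tox lie at 1.49 to 2.49 for BBA in both memory states.

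In Tem without cytokine no member was called by edgeR between BBA and WT, although 7 of 9 had an unadjusted p under 0.05 and all 9 a positive difference with a median of 1.25. Of all genes, 0.206% were called and 10.8% had an unadjusted p under 0.05. Havcr2 is among the 9 because it passed the filter through the BBA libraries, in which it was high. Lag3 stood at 40.8 and 23.9 CPM in WT, 118 and 108 in AAB and 204 and 98.9 in BBA, a difference between BBA and WT of 2.31 (adjusted p = 0.0875). Pdcd1 stood at 22.8 and 10.8 CPM in WT, 44.2 and 35.6 in AAB and 85.9 and 28.4 in BBA (1.85, adjusted p = 0.257), and Havcr2, a receptor found on exhausted T cells, at 3.15 and 3.63 in WT, 5.46 and 5.36 in AAB and 13.5 and 9.42 in BBA (1.83, adjusted p = 0.0992). For these 3 members both mutants were above WT in every library. BBA replicate 1 was above replicate 2 for Pdcd1, Lag3 and Havcr2, and without replicate 2 there were 6 calls (Ctla4, Havcr2, Lag3, Pdcd1, Tigit and Tox). With DESeq2 there were 6 calls as well, Btla in place of Pdcd1. With the replicate number as a block Havcr2 was called too (1.81, SE 0.28, adjusted p = 0.0234).

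AAB and WT also differed in no member by the edgeR test in Tem without cytokine, with 7 of 9 at an unadjusted p under 0.05, as had 8.03% of all genes. Lag3 was at 1.88 (adjusted p = 0.18) and Tigit at 1.46 (adjusted p = 0.345). Over the 7 CD8+ conditions other than Tcm with IL-15, 0.182% of genes were called between AAB and WT and 0.126% between AAB and BBA, and no member in either. The 4 markers of regulatory T cells summed to 67.9 to 68.8 CPM in BBA Tem without cytokine, 32.3 to 41.8 in AAB and 49.5 to 61.8 in WT.

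Cd274 was higher in BBA than in WT with IL-7, in Tnv and in Tcm. In Tnv with IL-7 it stood at 34.4 and 35.4 CPM in WT, 84.2 and 43.4 in AAB and 138 and 159 in BBA. The genotypes did not overlap, and BBA was above WT by 2.11 (SE 0.29, adjusted p = 0.0229), a 4.31-fold difference. In Tcm with IL-7 it stood at 25.0 and 28.2 CPM in WT, 44.4 and 47.3 in AAB and 94.0 and 84.8 in BBA, again without overlap, at 1.83 (SE 0.14, adjusted p = 0.00903), a 3.56-fold difference. With IL-15 the difference of Cd274 between BBA and WT was 0.29 in Tnv (SE 0.14, adjusted p = 0.276), -0.11 in Tcm and 0.11 in Tem. In Tnv without cytokine it was 0.48 (adjusted p = 0.0309), which is 1.4-fold and under the limit for a call.

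In Tnv, Cd274 moved in opposite directions with IL-7 in WT and BBA. In BBA Tnv it rose with IL-7 from 84.9 and 83.8 CPM by 0.80 (SE 0.13, adjusted p = 0.0116; 9.49% of genes called), and in BBA Tcm from 48.6 and 51.3 CPM by 0.90 (SE 0.13, adjusted p = 0.00805; 6.41% of genes called). In WT Tnv it fell by 0.85, and in WT Tcm it stood at 37.7 and 45.3 CPM without cytokine and was not called with IL-7. The response to IL-7 differed between BBA and WT by 1.65 in Tnv (SE 0.33, adjusted p = 0.0325; 2.46% of genes called) and by 1.53 in Tcm (SE 0.17, adjusted p = 0.0248; 0.0865% of genes called). In AAB Tcm, Cd274 stood at 46.8 and 52.2 CPM without cytokine and at 44.4 and 47.3 with IL-7.

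With 2 libraries a group these calls rested on each library. The Tnv call of Cd274 was lost without any of the 4 WT and BBA libraries, while the difference stayed at 1.99 to 2.20 (adjusted p from 0.0811 to 0.247). The Tcm call was lost without BBA replicate 1 (1.76) or 2 (1.90). It held without either WT library, a pair whose replicates stood far apart from each other. The difference in the response was not called in Tnv without any WT or BBA library (1.53 to 1.75) or in Tcm without any AAB or BBA library (1.46 to 1.60). In Tnv with IL-7 the NK cell markers, Eomes among them, summed to 180 to 276 CPM in BBA against 26.1 to 56.2 in WT, and in Tcm with IL-7 the memory markers to 554 to 786 against 2067 to 2084. The 6 B cell markers summed to 31.3 to 53 CPM in BBA against 9.33 to 16.2 in WT in Tnv with IL-7, and to 151 to 265 against 19.7 to 42.8 in Tcm with IL-7. The part of these markers in the differences was not tested. With filterByExpr in place of the filter the difference in the response in Tcm was not called (1.4, adjusted p = 0.0722), and with sex as a term the Tcm call of Cd274 was not made (1.8, adjusted p = 0.0747).

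**Figure D4:**
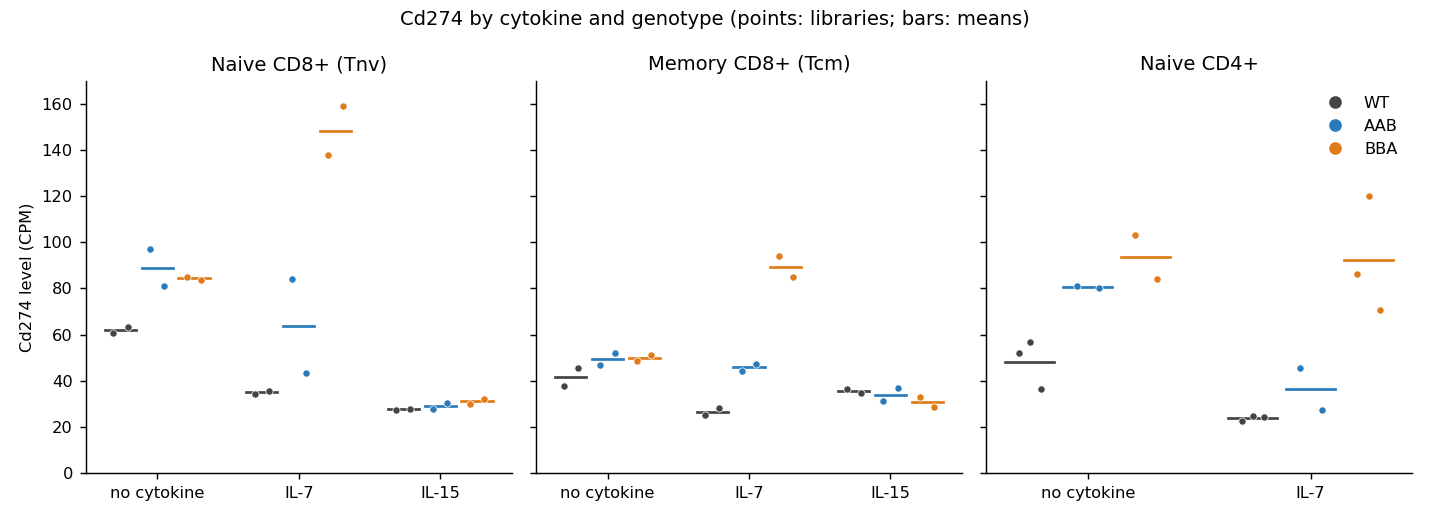
CPM of Cd274 in Tnv, Tcm and naive CD4+ T cells by cytokine and genotype. Points are libraries and bars are means. With IL-7 the BBA libraries (138 and 159 CPM in Tnv) lie above all others, and with IL-15 the genotypes lie close together.

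The other calls in CD8+ cells were fewer. Ctla4 was higher in BBA than in WT in Tcm with IL-7, where it stood at 7.06 and 4.7 CPM in WT, 10.5 and 7.92 in AAB and 18.5 and 25.4 in BBA (1.98, SE 0.36, adjusted p = 0.0424). Of all genes 3.09% were called there, and 2 of 8 members. The call was lost without either AAB library (adjusted p = 0.0634 and 0.0597) or either BBA library (2.19 with adjusted p = 0.167, and 1.73 with 0.297), and with sex as a term (1.99, adjusted p = 0.147). Leaving out WT replicate 1 added Tox (2.17, adjusted p = 0.00485) and Lag3 (2.67, adjusted p = 0.046). Leaving out WT replicate 2 instead gave calls of Cd274 and Ctla4 as higher and of Cd160 and Tigit as lower in BBA, so that the direction of Cd160 and Tigit in this condition rested on 1 library.

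Lag3 was higher in BBA than in WT in Tnv without cytokine, at 1.83 and 1.77 CPM (23 and 30 counts) in WT, 4.06 and 3.7 in AAB and 8.29 and 4.52 in BBA (1.83, SE 0.35, adjusted p = 0.036). Lag3 passed the filter there only through the BBA library at 8.29 CPM. It was the only 1 of 6 members tested to be called there, with 2.75% of all genes called, and without a WT library the adjusted p was 0.193 or 0.165. Without AAB replicate 1 or 2 it was 0.0626 or 0.0569, with the edgeR 4 quasi-likelihood 0.0534, and in a single fit over all CD8+ libraries 0.5. NK cell markers summed to 138 to 150 CPM in these BBA libraries and 75.9 to 81.4 in WT. With IL-7, where 2.69% of genes were called, Lag3 was at 5 counts and 1 count in the WT libraries and its difference of 3.17 was not called (adjusted p = 0.119).

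In Tnv with IL-15, where 9.31% of genes were called between BBA and WT, no member was called by edgeR and 1 of 6 had an unadjusted p under 0.05, against 22.3% of all genes. The WT pair held Ctla4 at 6.84 and 47.1 CPM, Lag3 at 5.98 and 26.4 and Pdcd1 at 2.05 and 13.4, the higher value each time in the library with Cd4 and Foxp3. Without that library, Ctla4 (18.5 and 18.3 CPM in BBA) was called higher in BBA at 1.55 (adjusted p = 0.0429). Without the other WT library, Ctla4 and Pdcd1 were called lower. In Tcm without cytokine no member was called by edgeR, with 5 of 8 at an unadjusted p under 0.05, against 9.69% of all genes, and 0.277% of genes called. Lag3 there stood at 12.2 and 5.71 CPM in WT, 23.9 and 22.1 in AAB and 49.8 and 29.2 in BBA, without overlap.

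Differences between genotypes in a cytokine response were called for no member other than Cd274 and Tox. Of all genes, 2.54% were called for the response of BBA against WT to IL-15 in Tnv, 0.00954% in Tem and 1.11% for IL-7 in CD4+ cells, and 0.132% over the 6 responses of AAB together. Over all 12 such comparisons, 3 of 90 member tests were calls and 18 had an unadjusted p under 0.05, against 1.22% and 10.9% of all gene tests.

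In naive CD4+ T cells, Pdcd1, Cd274, Lag3 and Tigit were higher in BBA than in WT without cytokine, and Cd274 was higher and Btla lower with IL-7. Pdcd1 stood at 4.85, 5.04 and 4.04 CPM in WT without cytokine, at 10.3 and 10.1 in AAB and at 13.2 and 20.0 in BBA, without overlap (1.87, SE 0.22, adjusted p = 0.00651). Lag3 stood at 0.848, 1.12 and 0.881 CPM (7, 10 and 12 counts) in WT, 4.44 and 2.61 in AAB and 5.46 and 12.2 (50 and 194 counts) in BBA, at 3.24 (SE 0.44, adjusted p = 0.0112). Tigit stood at 1.57, 1.01 and 0.66 CPM in WT, 4.44 and 3.51 in AAB and 4.04 and 6.43 in BBA, at 2.35 (SE 0.41, adjusted p = 0.0342). For Lag3 and Tigit all mutant libraries were above all WT libraries, from few counts. Both passed the filter only through mutant libraries, in which they were high.

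Cd274 stood at 52.0, 56.6 and 36.2 CPM in WT CD4+ cells without cytokine, 81.3 and 80.1 in AAB and 103 and 84.2 in BBA, at 0.97 (SE 0.18, adjusted p = 0.0462) for BBA against WT. Of all genes 1.13% were called there, with 4 of 7 members. The places of Lag3 and Tigit among the 7 rest on mutant libraries. Between AAB and WT, no member was called in either CD4+ condition, with 0.479% of genes called over both. Pdcd1 was nearest without cytokine (1.15, adjusted p = 0.104). The BBA call of Cd274 was lost without any library other than WT replicate 3 (0.79 to 1.11, adjusted p from 0.0633 to 0.269), those of Pdcd1 (1.53, adjusted p = 0.0672) and Lag3 (2.53, adjusted p = 0.0932) without BBA replicate 2, and that of Tigit without BBA replicate 1 (adjusted p = 0.0602) or 2 (1.96, adjusted p = 0.322) or WT replicate 2 (0.119) or 3 (0.0781). NK cell markers summed to 22.7 to 58.2 CPM in BBA against 5.38 to 6.54 in WT, with Ncr1 at 0 in both BBA libraries. The markers of regulatory T cells summed to 58 to 66.7 against 31.6 to 43.4, and of memory cells to 76.3 to 83 against 43.4 to 69.9, and their part in the differences was not tested.

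With IL-7, Cd274 stood at 22.4, 24.9 and 24.1 CPM in WT CD4+ cells, 45.4 and 27.1 in AAB and 86.2, 120 and 70.5 in BBA. BBA was above WT by 1.97 (SE 0.23, adjusted p = 0.000956), a call that held without each library in turn (1.73 to 2.13), and AAB was below BBA at -1.36 (SE 0.26, adjusted p = 0.0321). The latter was lost without AAB replicate 3 (-1.04, adjusted p = 0.166), BBA replicate 1 (-1.41, adjusted p = 0.0714) or any WT library (adjusted p from 0.0584 to 0.0706). Btla, the most abundant member in these cells, stood at 93.3, 76.2 and 104 CPM in WT and at 59.9, 58.6 and 60.9 in BBA, a difference of -0.59 (SE 0.16, adjusted p = 0.0456) that was lost in 5 of 8 leave-one-out fits (-0.71 to -0.48), namely without BBA replicate 1, 2 or 3 or WT replicate 1 or 3. It is the only member called lower in a mutant than in WT. Of all genes 5.50% were called between BBA and WT, with 2 of 6 members, 1.56% between AAB and BBA with IL-7 and 0.0788% between AAB and BBA without it.

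Pdcd1 in CD4+ cells with IL-7 stood at 1.93, 2.2 and 1.38 CPM in WT and 19.6, 9.74 and 1.98 in BBA, which overlap (2.50, adjusted p = 0.0535), and Tox at 30.0, 24 and 32.4 in WT and 54.7, 32.8 and 47.4 in BBA (0.67, adjusted p = 0.0624). These values are from fits without pairs. Deviations of same-numbered WT and BBA libraries had correlations of only 0.102 to 0.211 in this condition. With the replicate number as a block Pdcd1 was called at 2.16 (adjusted p = 0.0126) and Tox at 0.63 (adjusted p = 0.00345), which brought the members called to 4. Without BBA replicate 3, Lag3 and Pdcd1 were called in addition to Cd274, and without BBA replicate 2, Tox was. NK cell markers summed to 25.5 to 44.8 CPM in BBA and 0.445 to 1.52 in WT with IL-7, and Ncr1 was at 0 in 2 of the 3 BBA libraries. Their part in the differences was not tested.

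In WT CD4+ cells Cd274 was lower with IL-7 than without it (-1.0, SE 0.16, adjusted p = 0.00156), as were Pdcd1 (-1.28, SE 0.28, adjusted p = 0.00764) and Tox (-1.10, SE 0.11, adjusted p = 0.000145), and Ctla4 was higher by 1.10 (SE 0.31, adjusted p = 0.0224). Of all genes 16.8% were called, and 4 of 5 members. Ctla4 was not called without IL-7 replicate 2 (1.01, adjusted p = 0.072) or 3 (0.96, adjusted p = 0.0755), whereas the others were called without each library in turn. Btla had an adjusted p of 0.0143 but differed by 1.35-fold, under the limit.

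In the libraries labelled in vitro activated CD8+ T cells, Btla, Cd160 and Tox were lower with CA-STAT5A than with the empty vector. Stat5a, which the vector carries, rose by 3.36 (adjusted p = 0.00639), from 3.2 to 8.38 CPM across the empty vector libraries to 59.9 to 60.9 with CA-STAT5A. Cd160 stood at 142 and 306 CPM with the empty vector and at 46.7 and 56.0 with CA-STAT5A, without overlap, at -2.14 (SE 0.34, adjusted p = 0.0168). Btla stood at 10.9 and 7.13 CPM and at 1.4 and 2.49 (23 and 27 counts), at -2.25 (SE 0.42, adjusted p = 0.0282). Tox stood at 82.0 and 109 CPM and at 32.0 and 46.1, at -1.30 (SE 0.21, adjusted p = 0.0189).

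These calls were 3 of 6 members tested, with 6.63% of all genes called. Btla among them passed the filter only through the empty vector libraries, in which it was high. Lag3 stood at 27.5 and 75.2 CPM with the empty vector and 15.2 and 17.9 with CA-STAT5A (-1.64, adjusted p = 0.0765), Cd274 at 41.7 and 55.8 and at 30.3 and 31.7 (-0.66, adjusted p = 0.0806), and Tigit at 53.3 and 40.4 and at 107 and 52.6 (0.76, adjusted p = 0.244). None of these was called. Pdcd1, Ctla4 and Havcr2, at 4.67 CPM or less in each library, could not be tested. All 3 calls were lost without CA-STAT5A replicate 1 (Btla -1.86, adjusted p = 0.133; Cd160 -2.0, 0.0706; Tox -1.05, 0.0585). Without replicate 2 Tigit was called higher in addition, and without empty vector replicate 1 Cd274 and Lag3 lower.

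Sums of marker lists also differed between the arms. The NK cell markers summed to 4415 to 4796 CPM with the empty vector and 8676 to 9318 with CA-STAT5A, the B cell markers to 93.3 to 153 and 9.87 to 27.8, and the markers of regulatory T cells to 124 to 153 and 46.9 to 53.6. Cd160 is also expressed by NK cells. The part of these markers in the differences was not tested.

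**Figure D5:**
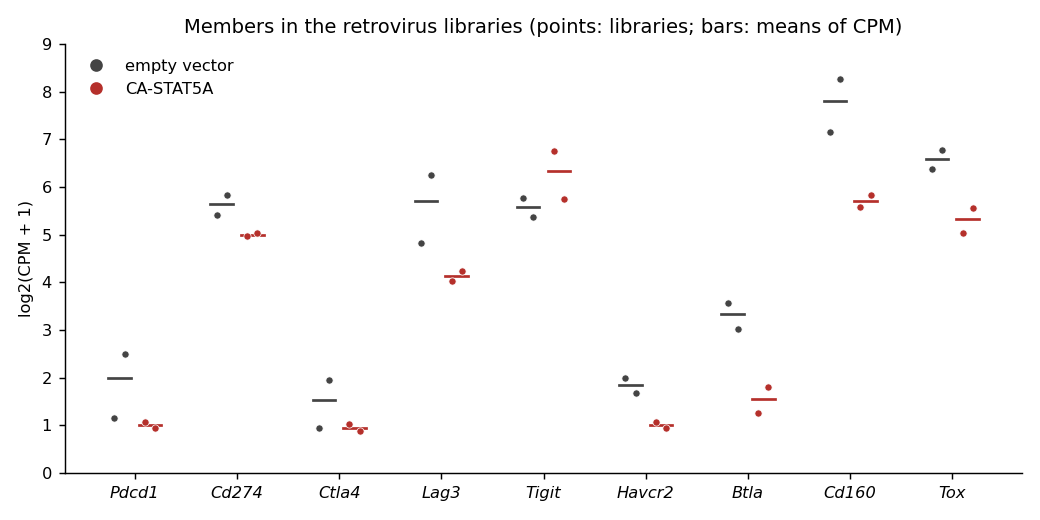
Level of the 9 members, as log2(CPM + 1), in the 4 retrovirus libraries. Points are libraries with the empty vector and with CA-STAT5A. Btla, Cd160 and Tox lie lower with CA-STAT5A, and Tigit does not.

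Related genes were examined in 3 lists, of 12 ligands and partners of the receptors, 13 related costimulatory and inhibitory receptors, and 14 signalling and transcription factors. In Tcm with IL-15, the background of 23.5% between BBA and WT compared with 6 of 10 related receptors called, 5 higher and 1 lower, with a median of 0.51. Icos, a costimulatory receptor, was higher by 1.13 (adjusted p = 0.000792), and Cd28, the receptor with which CTLA-4 competes, by 0.77 (adjusted p = 0.01). Lair1, an inhibitory receptor for collagens, was lower (-0.88, adjusted p = 0.0138). Of 6 ligands, 1 was called, Cd200 at 1.70 (adjusted p = 0.00657). Of 10 factors, Irf4 (1.13, adjusted p = 0.0157) and Tcf7 (0.87, adjusted p = 0.00121) were higher and Nfatc2 (-0.97, adjusted p = 0.000775) lower, with a median of 0.03.

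In Tem with IL-15, Cd200 (2.15, adjusted p = 0.0413) and Icos (0.96, adjusted p = 0.0447) were higher in BBA, 1 of 8 ligands and 1 of 11 receptors, with 1.76% of all genes called, and none of 11 factors was called. In Tem without cytokine, where no member was called, Tox2, a paralog of Tox, was higher in BBA by 2.95 (adjusted p = 0.0306). In CD4+ cells without cytokine Tox2 was higher by 3.68 (adjusted p = 0.025) and Eomes, a transcription factor of memory and NK cells, by 2.86 (adjusted p = 0.0124), and with IL-7 Eomes was higher by 4.32 (adjusted p = 0.000126). Eomes was also called higher in BBA Tnv (0.92 for NC, 3.12 for IL-7 and 1.13 for IL-15). Of 10 related receptors in CD4+ cells with IL-7, 5 were higher in BBA, with 5.50% of all genes called and a median of 0.69, among them Cd101 (1.41), Cd226 (0.81) and Cd5 (0.76).

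In WT cells the lists moved with cell state and cytokine as well. Between Tem and Tnv without cytokine, 3 of 6 ligands and partners were higher in Tem, with 8.08% of all genes called and Tnfsf14, which binds the same receptor as BTLA and CD160, at 3.85. Of 13 related receptors, 7 were higher and 1 lower, with Klrg1, an inhibitory receptor of terminally differentiated cells, at 5.58, Entpd1 at 2.52 and Pecam1 at -0.73. In Tcm, where 6.07% of all genes were called, 5 of 12 factors were lower with IL-15, with Nr4a1 at -3.68 and Nr4a2 at -2.60, both early response genes of the T cell receptor, and Nfatc2 was higher (0.85). In the libraries labelled in vitro activated CD8+ T cells, 3 of 13 related receptors were higher with CA-STAT5A (Klrg1 at 2.16 and Entpd1 at 2.28 among them) and 4 lower (Cd200r1 at -2.04 among them), with 6.63% of all genes called, and of 12 factors Irf4 (-1.59) and Tcf7 (-2.24) were lower.

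As a description over the 48 CD8+ libraries, which share conditions, genotypes and depth, the genes nearest in pattern to Ctla4, Lag3, Cd160 and Tox were taken by Pearson's r of log2(CPM + 1). Nearest to Ctla4 were Nrp1 (0.94), Ptms (0.91) and Alcam (0.90), and the same 3 genes were nearest to Lag3 (0.90, 0.95 and 0.92). Tnfsf14, Tor3a and Itgb2 were nearest to Cd160 (0.89 each), and Fmnl3 (0.88), Wsb2 (0.88) and Egr2 (0.87) to Tox. Between members, r was 0.88 for Ctla4 and Lag3, 0.68 for Cd160 and Tox, and -0.23 for Cd274 and Ctla4. Pdcd1, Tigit and Havcr2, with medians below 5 CPM, were left out.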

How the data were processed

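RNA-seq was made from sorted mouse T cells and from transduced cells labelled as CD8+ T cells. The authors deposited raw read counts per gene symbol in a table each for CD8+, CD4+ and retrovirus libraries. Sequencing was of poly(A)+ RNA with single-end reads of 50 bp. The submitters' processing notes name TopHat2, HTSeq, Cufflinks and mm9, whereas the methods of the study name mm10, and annotation and strand are not given in the sources used here. Gene positions and exon lengths are from GRCm38. Summary rows of the retrovirus table (67.0% to 68.4% of each column) were kept out. Counts of genes with overlapping exons are uncertain to that extent.

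The 3 genotypes of a condition were fitted together, one condition at a time, with edgeR 4.0.16 in R 4.3.3 (TMM, quasi-likelihood in its older form), after the filter rule of HTSFilter, which was re-implemented (100 thresholds from 1 to 200 normalized counts, thresholds chosen 40.2 to 170). Cytokine responses, cell states and differences of responses (12 CD8+ libraries each) were fitted on the libraries concerned. P-values measure the spread between these libraries. Named genes were the 9 members, Stat5a, Stat5b, called genes of 3 fixed lists (at most 3 a list and comparison) and the 3 genes nearest in pattern to each member with a median of at least 5 CPM. Some results of this rule and of the marker lists are not reported here. The members and lists were chosen with earlier results of these data known. On simulated counts the test recovered 94% of genes changed 2-fold in Tcm with IL-15, with 10 false calls, but 41% for the difference of responses in Tnv with IL-7. Only genes with a mean above 100 counts were changed, and all genes were given the same spread between libraries. Recovery of members with fewer counts or a wider spread was not measured. Alternatives were filterByExpr, no filter, DESeq2 1.42.0 and its size factors, a single fit over all CD8+ libraries, the edgeR 4 quasi-likelihood, a replicate block, a sex term, Bonferroni adjustment and leaving out each library. All calls reported as results are from fits without pairs, in CD4+ and CD8+ cells alike. Same-numbered WT and BBA libraries of CD4+ cells with IL-7 deviated together (correlations 0.102 to 0.211 in 3 pairs), and block values are given beside them. In CD8+ cells the correlations were -0.0557 to 0.793, over 0.1 in 20 of 24 pairs of groups. Block fits gave more calls there and are given at the end. 2 CD4+ libraries with contradicting labels entered no comparison.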

Additional observations from a re-analysis of the deposited data

Results flagged for a closer look

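A difference between genotypes in the response to a cytokine was called for 3 member comparisons. The response of Cd274 to IL-7 was higher in BBA than in WT by 1.65 on the log2 scale in Tnv and by 1.53 in Tcm, and the response of Tox to IL-15 in Tcm by 0.91. All 3 are from the interaction term in edgeR, with the libraries on which they rest given above.

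Levels above those of all 6 WT libraries of naive CD4+ T cells were found in the 2 CD4+ libraries that entered no comparison, because their titles name no cytokine and their treatment labels name IL-7. The library titled AAB_CD4_Nv_NC_3 held Pdcd1 at 9.08 CPM, Cd274 at 58.3, Lag3 at 5.88, Tigit at 3.21 and Cd160 at 2.29. The library titled BBA_CD4_Nv_NC_3 held Pdcd1 at 13.8 CPM, Cd274 at 62.7, Lag3 at 6.59, Tigit at 3.34, Havcr2 at 0.464 (5 counts), Cd160 at 3.34 and Tox at 69.3. The highest WT CD4+ library held 5.04 CPM of Pdcd1, 56.6 of Cd274, 1.57 of Lag3, 1.57 of Tigit, 0.367 of Havcr2, 2.24 of Cd160 and 62.4 of Tox. No test was made on these libraries.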

How the results depend on the processing

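Of the 50 single values called, none changed sign under any of 661 alternatives, 478 kept their call and 183 lost it, and 16 values kept it in every leave-one-out fit. Bonferroni adjustment ended 47 of the 50 calls, one fit over all CD8+ libraries 12 of 36, filterByExpr 8 (among them the 4 of BBA Tem with IL-15), no filter 2, the edgeR 4 quasi-likelihood 1, and DESeq2 and its size factors none. A sex term, run for Tcm with IL-7, ended both calls there (Cd274 1.80, adjusted p = 0.0747, and Ctla4 1.99, adjusted p = 0.147). Sex was taken from the level of Xist, with libraries above 50 CPM counted as female. In that condition it was not the same in all libraries of a genotype.

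Counts of member calls moved more. For BBA over WT in CD8+ cells (12) they were 30 without a filter, 22 with DESeq2, 1 with Bonferroni and 4 to 16 leaving out a library. For AAB over WT (1) they were 22, 11, 0 and 0 to 4, with 3 in one fit, and for AAB over BBA (2) they were 6, 6, 0 and 0 to 3, with 1 under filterByExpr. For the genotypes in CD4+ cells (7) they were 18, 15, 0 and 3 to 8, and for CA-STAT5A (3) they were 7, 5, 0 and 0 to 5. For WT cytokine responses (16) they were 1 with Bonferroni and 9 to 23 leaving out a library. For WT cell states (6) they were 29 without a filter, 18 with DESeq2, 0 with Bonferroni and 5 to 11, and for differences of responses (3) they were 9 without a filter, 1 under filterByExpr, 1 with Bonferroni and 0 to 3. The cause was not tested.

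In fits with the replicate block the counts were 25 for BBA over WT, 11 for AAB over WT, 5 for AAB over BBA, 8 for CD4+ cells, 18 for WT cytokine responses, 15 for WT states and 5 for differences of responses. The block ended 2 of 47 calls, Ctla4 in Tcm with IL-7 (2.02, adjusted p = 0.0613) and Tigit in CD4+ cells without cytokine (2.05, adjusted p = 0.0608). In CD8+ cells only 2 numbers are shared, and the correlation of same-numbered libraries was -0.0557 to 0.793, over 0.1 in 20 of 24 pairs of groups. No paired analysis was possible because 1 empty vector library carries no number in its label, in the retrovirus comparison. Depth limits Havcr2, and Lag3 and Tigit in naive cells, to few counts.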
